A study of Mus musculus with 4 samples.

Results

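The cells described here are fibroblasts (FB) of the small intestinal lamina propria that carried RNA of at least 2 genes of a set with *Dkk2* and *Shisa2* and of fewer than 2 activation genes. They were chosen by measured values: at least 1 unique molecular identifier (UMI, a tag that counts each captured RNA molecule once) for at least 2 of the 5 inclusion genes *Epha5*, *Vwc2*, *Dkk2*, *Shisa2* and *Gfra2*, fewer than 2 of the 5 activation genes *Ereg*, *Areg*, *Cxcl1*, *Cxcl2* and *Tnfaip6*, and at most 1 of the 4 PDGFRαhi FB genes *Sox6*, *F3*, *Foxl1* and *Bmp7*. There were 49 such cells in the first small intestinal library and 327 in the second, 376 in all, of 17097 small intestinal cells that passed the cell filter and of 32216 in the series. All 376 had at least 1 UMI of *Col1a2*, a type I collagen chain, and the comparison cells were the other 16125 small intestinal cells with a *Col1a2* UMI (Col1a2+ cells), 1295 and 14830 per library. The working name of resting *Dkk2*+ *Shisa2*+ FB holds for some of the cells only, since *Dkk2* and *Shisa2* were both detected in 13 of 49 and 52 of 327, and 34 (69.4%) and 231 (70.6%) carried 1 activation gene.

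The series holds single-cell RNA profiles of mesenchymal stromal cells (MSC) from the small intestine and the colon of untreated female C57BL6/Nrj mice aged 8–10 weeks, with 2 independent experiments per organ and 3 pooled mice per experiment. Each experiment gave 1 library, so a library is a pool of animals and there were 2 replicates per intestine. Peyer's patches and the muscularis externa were removed, and live cells were sorted as CD45-, Ter119-, CD31-, BP3-, EpCAM-, L1CAM- and Itgb1+, a gate meant to leave out blood, endothelial, epithelial and glial cells. Either a 3′ or a 5′ gene expression kit was used, and which library had which is not stated in the sources used here.

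Lamina propria fibroblasts build the matrix of the mucosa and set the WNT and BMP signals that the epithelium reads along the crypt-villus axis. WNT ligands and R-spondins keep crypt stem cells dividing, BMP ligands drive cells to mature, and secreted antagonists of both families shape the gradient. The 5 inclusion genes belong to such signalling families. Dkk2 is a secreted protein that binds the LRP5 and LRP6 co-receptors of WNT, Shisa2 holds Frizzled and FGF receptors back in the endoplasmic reticulum, Vwc2 (brorin) is a secreted BMP antagonist, Gfra2 is the co-receptor that binds neurturin, a member of the GDNF family, and Epha5 is a receptor for A-type ephrins. Of the activation genes, *Ereg* and *Areg* encode EGF receptor ligands, *Cxcl1* and *Cxcl2* encode chemokines that attract neutrophils, and *Tnfaip6* encodes a hyaluronan-binding protein induced by inflammatory signals.

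Promoter sequences are given for the inclusion genes that set the 2 intestines furthest apart, *Vwc2*, *Dkk2* and *Shisa2*, since the cells are defined by reads from them. They are the bases immediately before the outermost RefSeq start of each gene, on the plus strand of GRCm38.p6, at chr11:11113766-11113867 for *Vwc2* (102 bases), chr3:132085042-132085265 for *Dkk2* (224 bases) and chr14:59625031-59625280 for *Shisa2* (250 bases), credited to RefSeq. Capitals mark matches, on either strand, to CTTTGNT, the core of the LEF/TCF site of the WNT pathway, to TGANTCA, the site of the FOS and JUN proteins, to TATAAA, the box bound by the TBP protein, or to CCAAT, the box bound by the protein NF-Y.
Vwc2: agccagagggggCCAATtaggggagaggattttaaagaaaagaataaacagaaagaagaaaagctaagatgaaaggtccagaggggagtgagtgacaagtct
Dkk2: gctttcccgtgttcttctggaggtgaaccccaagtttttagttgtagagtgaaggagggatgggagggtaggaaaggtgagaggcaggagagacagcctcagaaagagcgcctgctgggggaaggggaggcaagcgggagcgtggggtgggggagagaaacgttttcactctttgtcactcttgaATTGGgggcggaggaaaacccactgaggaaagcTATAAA
Shisa2: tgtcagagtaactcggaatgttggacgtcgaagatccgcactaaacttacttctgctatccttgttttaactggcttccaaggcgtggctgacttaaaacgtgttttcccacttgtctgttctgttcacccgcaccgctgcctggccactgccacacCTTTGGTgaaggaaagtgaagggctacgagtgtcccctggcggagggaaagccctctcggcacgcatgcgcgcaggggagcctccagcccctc

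The *Vwc2* window held 1 CCAAT match, as did 13.8% of 32851 promoters cut to the same 102 bases, and no CpG where the median promoter had 2. The *Dkk2* window held a TATAAA match at its 3′ end, found in 10.3% of promoters over 224 bases, and a CCAAT match on the reverse strand, found in 31.5%. The *Shisa2* window held 14 CpG against a median of 6, and 1 CTTTGNT match, found in 15.98% of promoters over 250 bases. No window held TGANTCA, which 2.55%, 6.23% and 6.75% of promoters held over the 3 lengths. A match describes the letters and is not a binding site.

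The libraries differed in size and depth, with 1834 and 15263 filtered small intestinal cells, 2431 and 12688 colonic cells and between 14341443 and 52269372 UMIs per library. The cells of interest had a median of 8861 UMIs in the first and 2798 in the second library, against 8214 and 2794.5 in the other Col1a2+ cells, and their summed RNA came to 397739 and 929738 UMIs. They shared no cell barcode with each other or with any cell of another library. A doublet caller marked 0 of the 49 and 12 of the 327, which were kept. Intervals given for shares and ratios are exact 95% intervals and cover counting error only.

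The cells made up 3.65% of small intestinal Col1a2+ cells in the first library (95% interval 2.71 to 4.79%) and 2.16% in the second (1.93 to 2.40%). The same rule applied to the colon, which the rule did not use, found 8 of 2154 (0.371%, interval 0.160 to 0.730%) and 14 of 12492 Col1a2+ cells (0.112%, 0.0613 to 0.188%). Both small intestinal shares were thus above both colonic shares and their counting intervals did not overlap, but an exact two-sided permutation test of 2 against 2 libraries cannot go below p = 0.333, and no test of the shares was made. When every cell was thinned to 2000 UMIs, which left out 84 and 3304 shallower small intestinal cells and 69 and 1329 colonic ones, the shares were 1.75% and 1.65% in the small intestine and 0.192% and 0.0537% in the colon. Expressed per cell within both exclusions the share was 11.7% and 6.69%.

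The step that removed most candidates was the activation rule. Of Col1a2+ cells with 2 or more inclusion genes, 237 (17.6%) and 1249 (8.24%) in the small intestine, 188 (79.3%) and 916 (73.3%) had 2 or more activation genes, whereas the PDGFRαhi rule removed 0 and 6. The share of cells with fewer than 2 activation genes was 20.7% and 26.7% among the cells with inclusion genes, against 39.6% and 36.2% among all Col1a2+ cells. It was lower with each added inclusion gene, going from 51.4% with none to 30.7%, 21.6% and 19.7% with 1, 2 and 3 in the first library, and from 39.5% to 31.5%, 27.3% and 22.8% in the second. Depth moved with this order, as median UMIs went from 7123.5 to 11289 and from 2634 to 3407. With cells thinned to 2000 UMIs the second library ran from 39.2% to 38.7%, 37.2% and 32.0%, and the first from 60.7% to 55.3%, 51.2% and 33.3%, the last value resting on 3 cells. The word resting therefore describes the exclusion and the few cells it left, not most cells that carried the inclusion genes.

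**Figure D1:**
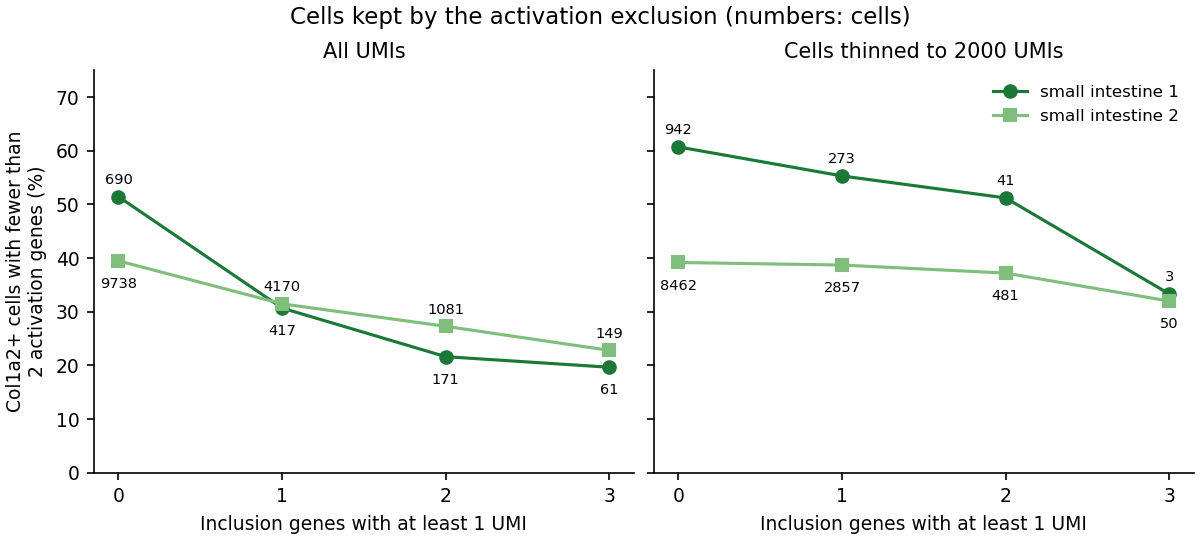
Share of small intestinal Col1a2+ cells (%, y axis) with fewer than 2 activation genes, by the number of inclusion genes with at least 1 UMI (x axis), for both libraries, with all UMIs (left) and with cells thinned to 2000 UMIs (right). Numbers beside points are cells; the share ran from 51.4% to 19.7% and from 39.5% to 22.8% with all UMIs, and from 39.2% to 32.0% in the second library after thinning.

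Most of the cells stood at the lower limit of the inclusion rule. Exactly 2 inclusion genes were detected in 328 of the 376 cells (37 and 291 per library), 3 in 45 (12 and 33), 4 in 3 cells of the second library and all 5 in none. *Dkk2* was the inclusion gene detected most often, in 31 of 49 (63.3%) and 223 of 327 cells (68.2%), with levels of 171 and 339 CPM (counts scaled to a common total per class and library) in the summed RNA. *Gfra2* was detected in 24 (48.98%) and 152 cells (46.5%), and *Vwc2* in 24 (48.98%) and 103 (31.5%). *Shisa2* was detected in 26 (53.1%) and 101 (30.9%), so that most of them in the second library carried no *Shisa2* UMI. *Epha5* differed most between libraries, with 5 of 49 cells (10.2%) against 114 of 327 (34.9%) and 17.6 against 146 CPM. The most frequent pair was *Dkk2* with *Gfra2*, in 16 and 95 cells.

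Just outside the threshold, 120 and 1283 Col1a2+ cells met both exclusions and had exactly 1 inclusion gene. That gene was *Dkk2* in 51.7% and 44.2% of them, *Gfra2* in 18.3% and 20.1%, *Vwc2* in 18 cells and in 12.3%, *Shisa2* in 12.5% and 13.95%, and *Epha5* in 2.50% and 9.43%. The level of *Dkk2* in these cells, 181 and 247 CPM, was near that of cells just inside with exactly 2 genes, at 135 and 329 CPM. Cells with 3 or more genes had 266 and 412 CPM.

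Across all small intestinal Col1a2+ cells, most pairs of inclusion genes were found together more often than the product of their shares would give. *Epha5* and *Shisa2* were not in the first library, at 5 cells against 5.55. *Dkk2* and *Shisa2* had ratios of 1.38 and 1.29, which were 0.704 and 1.15 after thinning. *Dkk2* and *Gfra2* were both present in 87 and 393 cells, where 57.6 and 289 were expected. *Vwc2* and *Shisa2* were both present in 42 and 106 cells against 23.6 and 56.4, a ratio of 1.78 and 1.88 that was 2.34 and 1.88 after thinning. *Vwc2* and *Dkk2*, at 52 and 181 cells against 43.0 and 156, had a ratio of 1.06 in each library after thinning. Both genes of a pair share the depth of the cell, and the pairs are a description without a test.

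The detection of the inclusion genes outside the cells shows how they were spread over the tissues. *Vwc2* had a UMI in 174 (12.9%) and 922 (6.08%) small intestinal Col1a2+ cells but in 1 of 2154 and 2 of 12492 colonic ones. *Dkk2* was found in 24.7% and 17.0% of the small intestinal cells and in 1.35% and 0.801% of the colonic ones. *Shisa2* was found in 13.5% and 6.12% against 2.83% and 0.664%. The 2 intestines were closer for *Gfra2*, with 17.3% and 11.2% against 11.5% and 7.16%, and overlapped for *Epha5*, with 3.05% and 4.84% against 3.85% and 3.03%. Thinning kept this order for *Vwc2*, at 4.92% and 4.40% against 0.0480% and 0.00896%, and for *Dkk2*, at 13.7% and 13.4% against 0.480% and 0.564%. Free RNA could reach any droplet, and the 376 small intestinal cells of the first library with endothelial genes (median 4511 UMIs) had a *Dkk2* UMI in 4.52%, a *Shisa2* UMI in 1.06%, a *Vwc2* or a *Gfra2* UMI in 0.532% each and no *Epha5* UMI, which allows a share of up to 0.798%. The second library, which held most of the cells, gave no such reference. Only 6 of its cells had endothelial and 13 plasma cell genes, 5 and 10 of which also had a *Col1a2* UMI. *Dkk2* was detected in 0 of the 6 and 4 of the 13 (30.8%, interval 9.09 to 61.4%), *Shisa2* in 0 and 3, *Gfra2* in 1 and 3, *Vwc2* in 1 and 1 and *Epha5* in 0 and 0, so the background of that library could not be set.

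**Figure D2:**
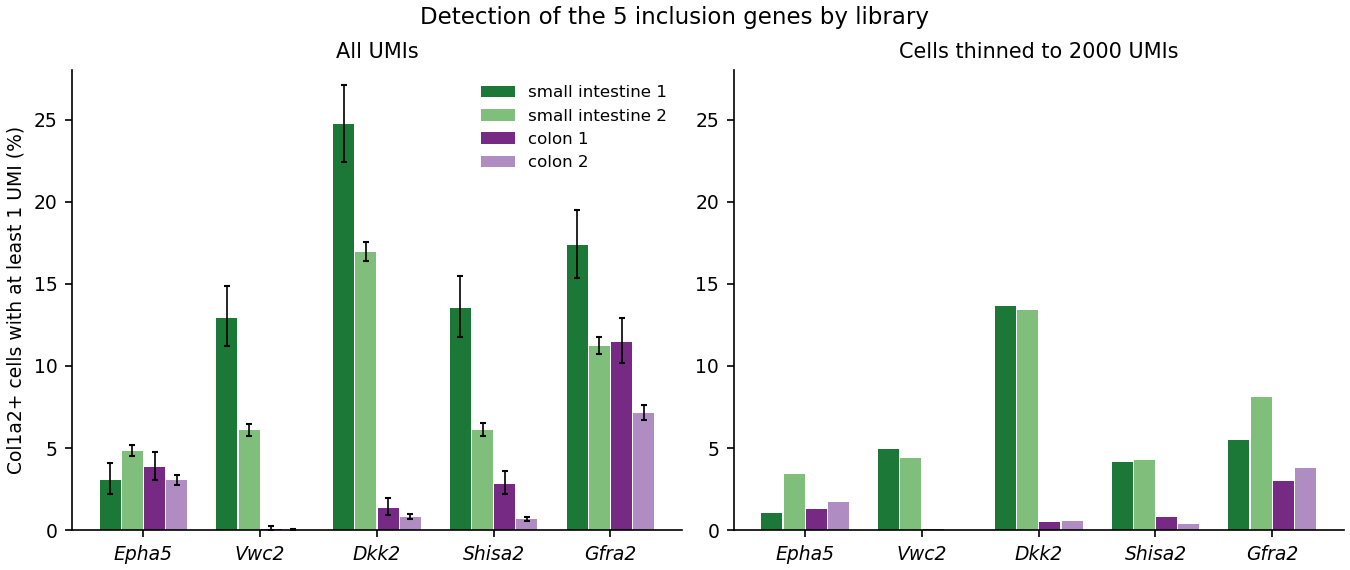
Share of Col1a2+ cells (%, y axis) with at least 1 UMI of each inclusion gene (x axis) in the 4 libraries, with all UMIs (left, bars show exact 95% intervals) and with cells thinned to 2000 UMIs (right). *Vwc2*, *Dkk2* and *Shisa2* stood higher in both small intestinal libraries than in both colonic ones, whereas *Epha5* overlapped between the intestines.

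The cells carried fibroblast markers at about the level of the other Col1a2+ cells. Of 6 fibroblast markers, *Col1a1*, *Col1a2*, *Col3a1*, *Dcn*, *Lum* and *Pdgfra*, 0 differed by 2-fold from the other Col1a2+ cells in both libraries, and their median log2 fold was 0.07 beside -0.00 over all 12496 genes. Decorin (*Dcn*), a collagen-binding proteoglycan, stood at 17964 and 19487 CPM against 15283 and 16978. *Col3a1*, a fibrillar collagen chain, stood at 4528 and 9035 CPM against 4305 and 7899. *Pdgfra*, the platelet-derived growth factor receptor, was at 284 and 252 CPM, against 495 and 354 in the other cells. *Cd34*, which marks the PDGFRαlo FB around crypts, was at 827 and 611 CPM against 534 and 474.

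The markers of other cell types given here were low in the cells, and their part in the results was not tested. All 5 epithelial (*Epcam*, *Krt8*, *Krt18*, *Krt20*, *Cdh1*) and all 4 mesothelial markers (*Msln*, *Upk3b*, *Lrrn4*, *Wt1*) were at 0 UMIs in both libraries. The 5 endothelial markers summed to 23 and 17 UMIs, mostly *Plvap*, with *Cdh5* and *Egfl7* at 0 in both. The 5 immune markers summed to 16 and 29 UMIs, with *Tyrobp* at 0 in both and *Ptprc*, the gene of CD45, at 0 and 1. Of 3 markers of interstitial cells of Cajal, *Ano1* was at 0 in both and *Kit* at 0 and 1. The 2 with enough counts to be compared summed to 10.1 and 18.3 CPM against 57.5 and 39.7, nearly all of it *Etv1* in the cells. Immunoglobulin RNA was the exception in the second library, with 1409 *Igkc* and 128 *Jchain* UMIs, but 1378 and 122 of these came from a single cell that also carried plasma cell genes. Without that cell 31 *Igkc* UMIs were left among the other cells of that library.

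The first comparison set the cells against all other Col1a2+ cells of their own library. The 5 inclusion, 5 activation and 4 PDGFRαhi genes separate the groups by construction and are not results, and the other genes come from the cells on which the rule was built, so folds are a description with no test. A fold was computed as the log2 ratio of CPM + 10 in each library, which understates the change of low genes. At least 2-fold in both libraries, 4 of 12496 genes (0.032%) were higher and 52 (0.416%) were lower. All 4 that were higher were inclusion genes, and of the 52 that were lower 6 belonged to the rule and 46 did not. On the CPM + 10 scale the genes outside the rule past 2-fold were thus all lower. They included smooth muscle genes, inflammatory genes and genes of other FB subsets. The comparison cells here include those that the exclusions removed, and within both exclusions 0 of 20 inflammatory genes were 2-fold lower.

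**Figure D3:**
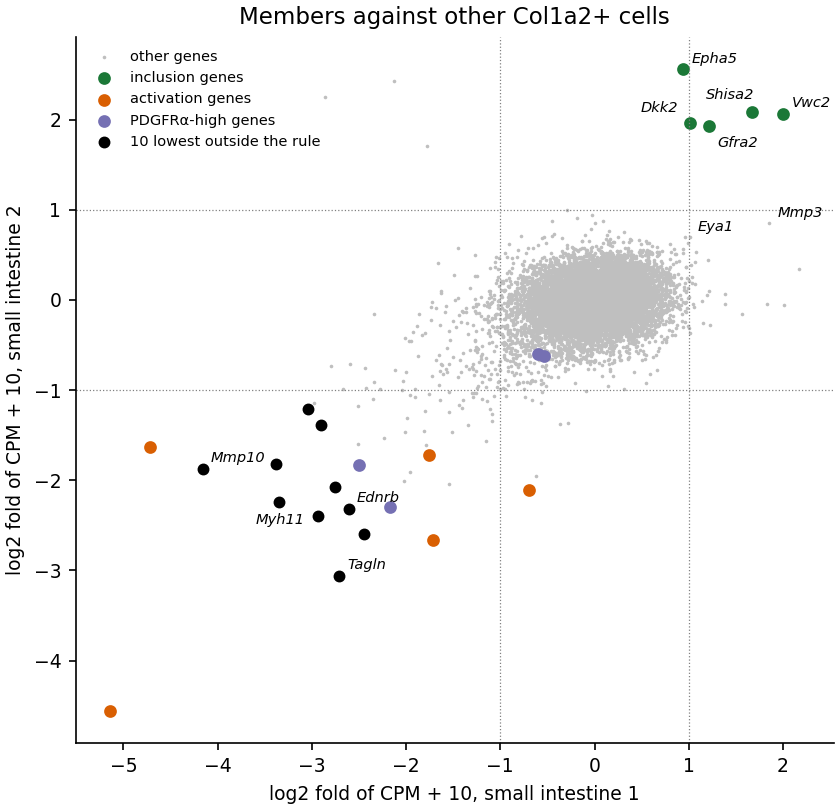
Log2 fold of CPM + 10 between the 376 cells and other Col1a2+ cells in the first (x axis) and second (y axis) small intestinal library, 1 point per gene; dotted lines mark 2-fold. Inclusion genes lie at the upper right, the 10 lowest genes outside the rule at the lower left, and no gene outside the rule passes 2-fold upwards in both libraries.

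The contractile genes of smooth muscle were the clearest group. *Tagln* (transgelin) stood at 229 and 51.6 CPM in the cells against 1555 and 503 in the others, a ratio of 0.147 (0.118 to 0.181) in the first and 0.103 (0.0757 to 0.136) in the second library. *Acta2*, smooth muscle actin, stood at 289 and 68.8 CPM against 1626 and 468, a mean log2 fold of -2.53 ± 0.11 (SD, n = 2 libraries). *Myh11*, the smooth muscle myosin heavy chain, stood at 17.6 and 5.38 CPM against 201 and 71.0. All 6 smooth muscle markers were lower by at least 1.5-fold in both libraries, beside 1.42% of all genes, and 3 of them by 2-fold, with a median log2 fold of -2.06. Among the 5 pericyte markers *Kcnj8*, a potassium channel subunit, was lower, at 7.54 and 0 CPM against 108 and 32.1, whereas *Rgs5* was at 915 and 891 CPM against 737 and 629.

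Inflammatory and immediate early genes outside the rule were also lower. The comparison cells here include the activated cells that the rule removed. *Ccl7*, a monocyte chemokine, stood at 10.1 and 31.2 CPM against 155 and 85.3, and *Ccl2*, a chemokine of the same kind, at 168 and 134 CPM against 682 and 533. *Ptgs2*, the inducible cyclooxygenase, stood at 82.97 and 69.9 CPM against 196 and 226. Of 20 inflammatory genes measured, 17 were lower by any fold in both libraries, beside 29% of all genes, and 6 of them by 2-fold, with a median log2 fold of -0.91. Of 23 immediate early genes, 22 were lower in both libraries, beside the same 29%, but only 1 by 2-fold, with a median of -0.53. *Fos* itself stood at 2886 and 5680 CPM against 4461 and 6608, and *Junb* at 2901 and 2519 against 4817 and 3679. These 2 genes thus remained among the abundant RNAs of the cells.

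The remaining genes lowest in the cells carried several functions. *Mmp10*, a matrix-degrading protease, had 0 and 29 UMIs, 0 and 31.2 CPM against 169 and 141, the lowest mean log2 fold of all genes outside the rule at -3.01 ± 1.62 (SD, n = 2 libraries). *Tmem158*, a membrane protein induced by RAS signalling, stood at 7.54 and 9.68 CPM against 169 and 82.8. *Procr*, the endothelial protein C receptor, stood at 10.1 and 17.2 CPM against 199 and 86.1. *Ednrb*, an endothelin receptor, stood at 10.1 and 6.45 CPM against 112 and 71.9. *Tspan13*, a tetraspanin, had 0 and 3 UMIs, or 0 and 3.23 CPM, against 65.0 and 24.5 CPM. In the first library counts of 0 to 4 UMIs lay behind 7 of the 10 lowest genes.

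Among signals that FB send, *Wnt4*, *Bmp5* and *Cxcl14* were lower by 2-fold in both libraries, whereas *Grem1*, *Rspo3* and *Wnt2b* were higher in both by less than 2-fold on the CPM + 10 scale. *Wnt4*, a non-canonical WNT ligand, stood at 7.54 and 13.98 CPM against 41.0 and 88.5. *Bmp5*, a BMP ligand typical of PDGFRαhi FB, stood at 22.6 and 30.1 CPM against 112 and 74.5. *Cxcl14*, a chemokine of Fgfr2+ FB, stood at 15.1 and 22.6 CPM against 132 and 88.3. *Grem1*, a BMP antagonist, was at 357 and 461 CPM against 337 and 410, and *Rspo3*, an R-spondin, at 138 and 149 CPM against 92.7 and 116. *Wnt2b*, a canonical WNT ligand, was at 118 and 31.2 CPM against 57.0 and 17.7, or log2 folds of 0.94 and 0.57. *Efnb2*, an ephrin of the B type, was the only one of 15 Eph and ephrin genes outside the rule lower by 2-fold, at 5.03 and 3.23 CPM against 28.1 and 24.5.

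Among 17 WNT modulators outside the rule 0 passed 2-fold, 9 were higher and 3 lower in both libraries, beside 27.7% and 29% of all genes, and the median log2 fold was 0.21. *Sfrp1*, a secreted Frizzled-related protein that binds WNT, was the one at the highest level, at 3193 and 3720 CPM against 2051 and 2742. *Frzb*, of the same family, was at 85.5 and 34.4 CPM against 31.6 and 32.7, so that its difference stood in 1 library. The 9 BMP antagonists outside the rule had a median of -0.36, and 0 of them passed 2-fold. Of 5 GDNF family genes 0 passed 2-fold, and *Ncam1*, the cell adhesion molecule that can act as a GDNF receptor with GFRα proteins, stood at 329 and 414 CPM against 235 and 348. The 20 Hox genes had a median of 0.11, the 11 complement genes 0.12, the 24 matrix genes 0.04 and the 19 collagens -0.08, each with at most 1 gene past 2-fold.

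On the CPM + 10 scale no gene outside the rule was higher by 2-fold in both libraries. This depended on the setting, as 21 such genes were higher with a pseudocount of 1 CPM and 14 with at least 3 inclusion genes. At 1.5-fold in both libraries, on the CPM + 10 scale, 12 genes (0.096%) were higher. They were the 5 inclusion genes and *Mmp3*, *Eya1*, *Ptgfr*, *Osr1*, *Pid1*, *Plscr4* and 2810454H06Rik, which are named after their values were seen. *Mmp3* (stromelysin-1), a matrix protease, stood at 372 and 153 CPM against 96.0 and 80.3, the highest mean log2 fold outside the rule among the 7 at 1.35. *Ptgfr*, the prostaglandin F receptor, stood at 30.2 and 20.4 CPM against 10.7 and 8.74. *Osr1*, a transcription factor of embryonic mesenchyme, stood at 75.4 and 88.2 CPM against 33.0 and 53.4. *Eya1*, a transcriptional co-activator, rested on 7 and 15 UMIs, 17.6 and 16.1 CPM against 3.72 and 6.09.

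Because the rule itself removes activated and PDGFRαhi cells, the comparison was repeated against the 369 and 4559 other Col1a2+ cells within both exclusions. These had fewer than 2 inclusion genes and were shallower, with a median of 5380 and 2380 UMIs against 8861 and 2798. The smooth muscle genes stayed lower in both libraries, and the immediate early genes had a median log2 fold of -0.49 in the first and 0.06 in the second. Here 5 of 10666 genes (0.0469%) were higher by 2-fold in both libraries, all of them inclusion genes, and 33 (0.309%) were lower. All 6 smooth muscle markers were lower by 2-fold, with a median log2 fold of -2.90, and their summed level was 591 and 153 CPM against 6447 and 1392. *Tagln* had log2 folds of -3.28 and -3.25 and *Acta2* of -3.27 and -2.94. *Cxcl14* and *Wnt4* also stayed lower, at -3.06 and -2.10 and at -1.66 and -2.47. Of 5 BMP ligands measured outside the rule 0 were lower by 2-fold in both libraries.

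Of 22 immediate early genes 0 passed 2-fold in this narrower comparison and 5 were lower in both libraries, beside 32% of all genes. *Fos* had log2 folds of -0.53 and 0.13 and *Junb* of -0.46 and 0.07, so that the second library showed no lower level. Of 20 inflammatory genes 0 passed 2-fold, with a median log2 fold of -0.36. In both libraries 10 of them were lower and 3 higher, beside 32% and 22.4% of all genes. *Ccl2* moved from -1.96 and -1.91 to -0.13 and -0.29, and *Ptgs2* from -1.15 and -1.56 to -0.37 and -0.44. The inflammatory level of the cells was thus closer to that of cells within the same exclusions than to that of all other Col1a2+ cells. At 1.5-fold 8 genes (0.075%) were higher, the 5 inclusion genes with *Eya1*, *Mmp3* and *Edil3*, the last also named after its values were seen. *Edil3*, an integrin-binding matrix protein, stood at 47.8 and 47.3 CPM against 20.0 and 26.3.

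Within both exclusions the cells could also be ordered by the number of inclusion genes, 0, 1, 2 or at least 3. The order shows that cells with 1 inclusion gene, just outside the rule, already lay between. *Sfrp1* stood at 1657, 2466, 2720 and 4443 CPM along it in the first library and at 2448, 3298, 3710 and 3794 CPM in the second, higher at every step in both. *Cxcl14* stood at 296, 34.9, 20.8 and 0 CPM and at 170, 39.3, 20.8 and 35.0 CPM, with its widest step between no and 1 inclusion gene. *Tagln* stood at 2817, 1474, 256 and 156 CPM in the first library, and at 731, 220, 27.0 and 228 CPM in the second, where the last value rested on 26 UMIs. *Ncam1* stood at 208, 248, 308 and 385 CPM and at 318, 345, 414 and 412 CPM. *Mmp3* stood at 492 and 146 CPM with 2 inclusion genes and at 55.0 and 202 CPM with at least 3, so that its higher level in the first library came from cells with 2. The genes that count the steps were the ones used by the rule, and no test was made.

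**Figure D4:**
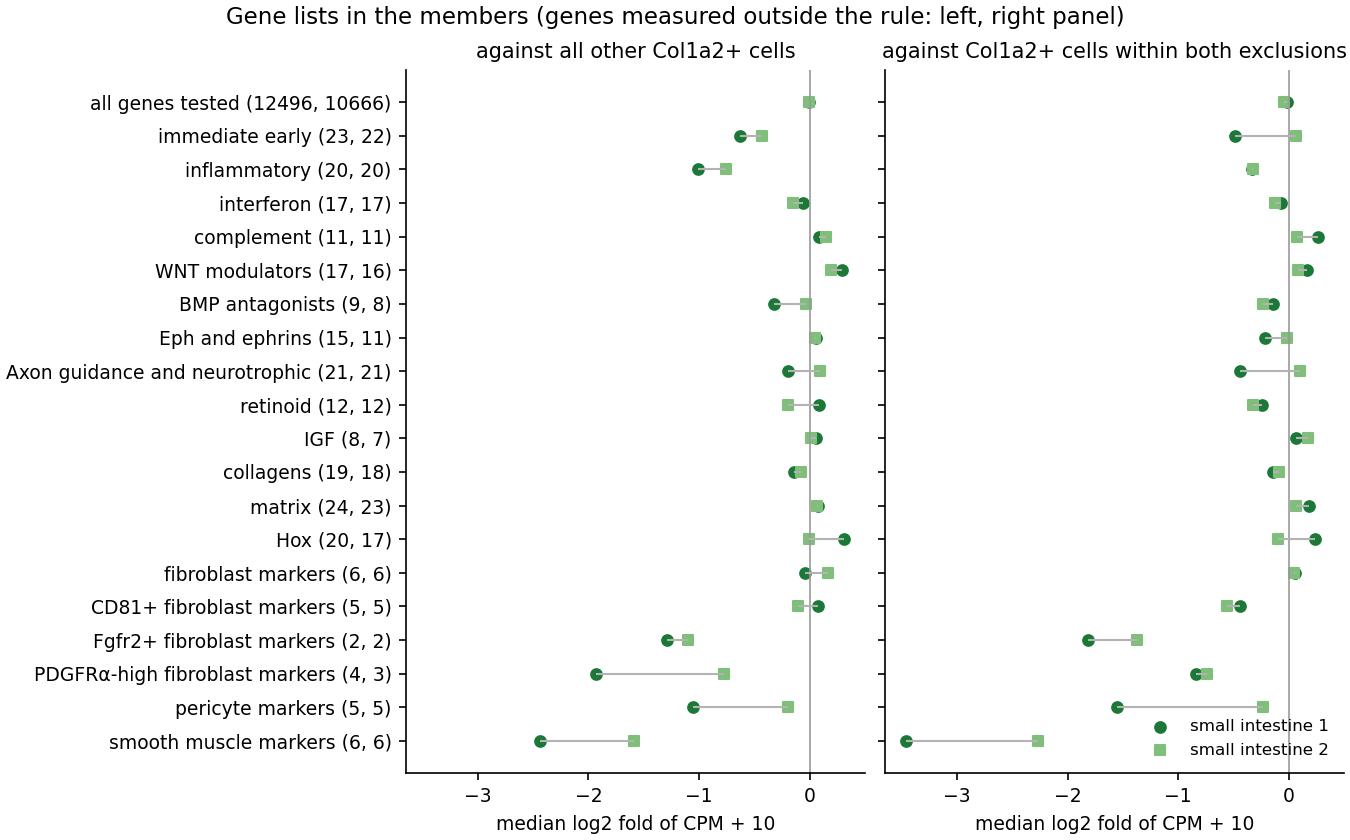
Median log2 fold of CPM + 10 per gene list (x axis) in each small intestinal library, for the 376 cells against all other Col1a2+ cells (left) and against those within both exclusions (right); numbers in brackets are genes measured outside the rule. Immediate early genes had medians below 0 in both libraries on the left only, and smooth muscle markers lay furthest below 0 in both panels.

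The cells were also read against the named FB subsets through small gates. At least 2 of the genes *Ackr4*, *Grem1*, *Pi16* and *Rspo3*, which mark CD81+ FB, were detected in 20 of 49 (40.8%) and 85 of 327 cells (25.99%), against 31.4% and 23.4% of the other cells within both exclusions. *Fgfr2* had a UMI in 25 (51.0%) and 59 (18.0%), against 33.6% and 20.1%. At least 2 mural genes were detected in 14 (28.6%) and 18 (5.50%), against 27.6% and 10.6%. A single PDGFRαhi gene was found in 19 (38.8%) and 31 (9.48%), against 23.0% and 19.8%. No activation gene at all was found in 15 (30.6%) and 96 cells (29.4%), against 30.1% and 40.2%. The order of the 2 groups thus turned between libraries for *Fgfr2*, the mural genes, the PDGFRαhi genes and the lack of an activation gene. It was kept for the CD81+ FB genes. The cells were deeper than these other cells, with medians of 8861 and 2798 UMIs against 5380 and 2380. Detection depends on depth, so the kept order does not show a higher level of the CD81+ FB genes. Genes of several FB subsets were thus found among the cells.

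Levels in the gates were read for genes that define none of them. The gates were applied in turn, so that each cell fell into the first it met. *Acta2* stood at 8862 and 3186 CPM in the mural gate and at 4640 and 2476 CPM in the PDGFRαhi gate, against 289 and 68.8 CPM in the cells. *Cxcl14* stood at 789 and 453 CPM in cells with *Fgfr2*, against 15.1 and 22.6 CPM. *Sfrp1*, at 3193 and 3720 CPM, was higher than in every other gate except the cells that carried both inclusion and activation genes, at 3224 and 3401 CPM. *Ptgs2*, at 82.97 and 69.9 CPM, lay near the CD81+ gate at 88.9 and 78.2 CPM and below the activation gate at 242 and 279 CPM.

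**Figure D5:**
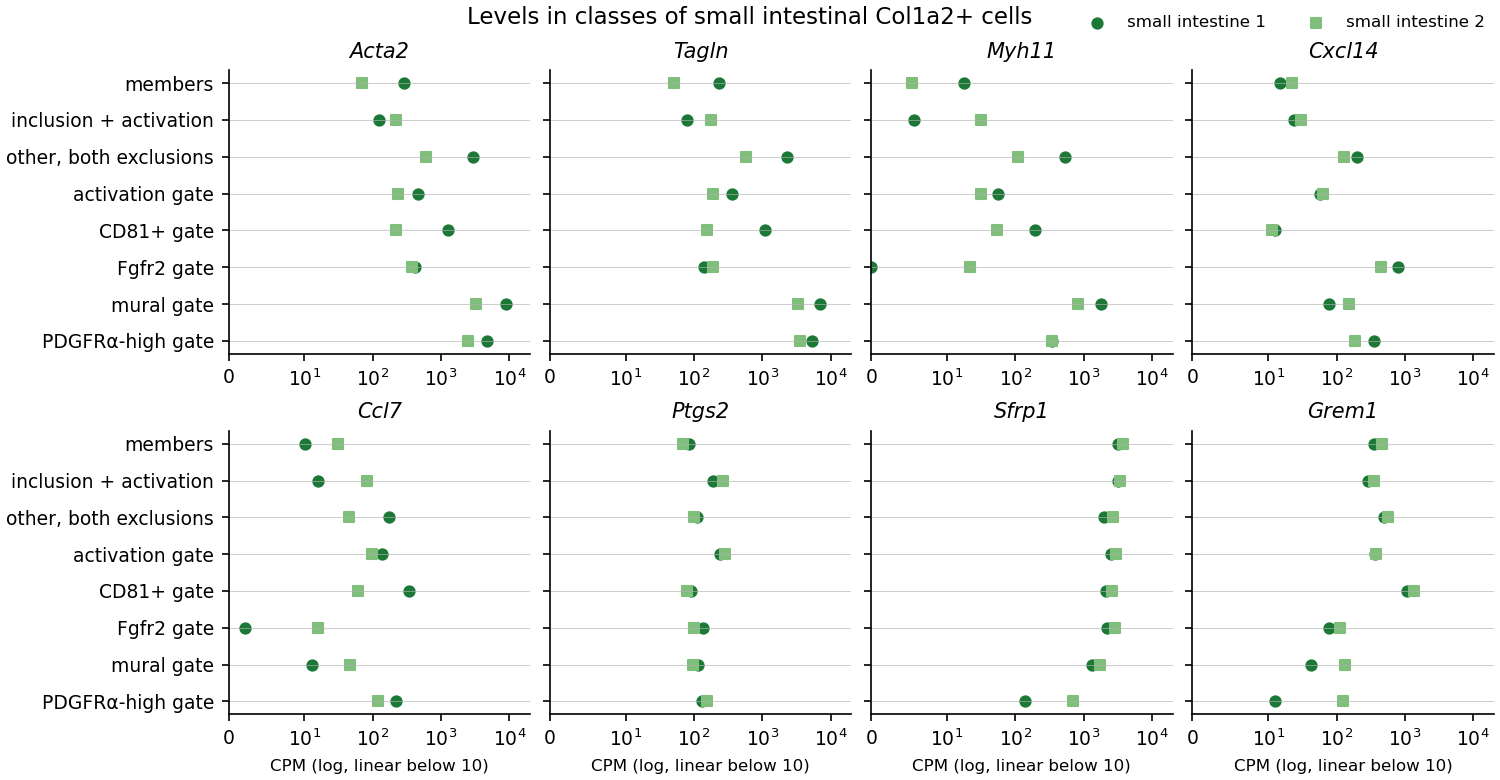
Level in CPM (x axis, logarithmic above 10 and linear below) of 8 genes in the 376 cells (members) and in 7 other classes of small intestinal Col1a2+ cells, with 1 point per library. *Acta2* was highest in the mural gate, *Tagln* in the mural or the PDGFRαhi gate and *Cxcl14* in the *Fgfr2* gate; *Myh11* and *Grem1* are among the genes that define the mural and the CD81+ gate, which fixes their high levels there.

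The cells that the activation rule removed allow the same inclusion genes to be read in activated cells. In the 185 and 899 cells with inclusion and activation genes, against 567 and 8440 with activation genes alone, 4 of 11634 genes (0.0344%) were higher by 2-fold in both libraries, all inclusion genes, and 4 (0.0344%) were lower. The lower genes were *Agt* (angiotensinogen), *Mmp10*, *Saa3* (an acute-phase protein) and *Wnt4*. *Agt* stood at 3.596 and 18.9 CPM against 59.5 and 58.0, *Mmp10* at 37.0 and 48.99 CPM against 174 and 140, and *Wnt4* at 1.54 and 22.7 CPM against 15.3 and 63.3. *Mmp10* and *Wnt4* were thus low beside the inclusion genes with and without activation. The 6 smooth muscle markers had a median log2 fold of -2.13 in the first library and 0.07 in the second. Of these, 3 were lower by any fold in both libraries, beside 3213 of 11634 genes, and 0 by 1.5-fold.

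The colon offered samples that the rule did not use, although only 8 and 14 cells passed it there. None had a *Vwc2* UMI, and *Dkk2* was found in 1 and 2 of them, *Shisa2* in 4 and 4, *Gfra2* in 7 and 11 and *Epha5* in 4 and 11, so that the colonic cells passed mainly on *Gfra2* and *Epha5*. The quasi-likelihood test of edgeR on the 8 summed libraries, with each library as a block, called 20 of 12415 genes higher (0.161%) and 227 lower (1.83%) in colonic cells passing the rule than in other colonic Col1a2+ cells, at an adjusted p under 0.05 and more than 2-fold. Of these, 16 higher and 221 lower genes lay outside the rule. Summed RNA of 79724 and 58218 UMIs stood behind the colonic cells. The median log2 fold of genes outside the rule was -0.46.

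*Grem1* had the smallest adjusted p of the higher genes, at 1079 and 1220 CPM against 241 and 305, a log2 fold of 1.78 ± 0.16 (SE, adjusted p = 1.2e-24). *Rspo3* rose in the same comparison by 2.22 ± 0.40, from 27.8 and 25.8 to 87.8 and 240 CPM (adjusted p = 4.0e-06), and *Wnt2b* by 1.57 ± 0.40 (adjusted p = 0.0053) on 18 and 4 UMIs. Against colonic cells within both exclusions *Grem1* (1.68, adjusted p = 1.1e-20) and *Rspo3* (1.79, adjusted p = 0.00099) were still called and *Wnt2b* was not (1.34, adjusted p = 0.070). The small intestinal cells showed for *Grem1*, *Rspo3* and *Wnt2b* log2 folds of 0.08 and 0.17, 0.53 and 0.34, and 0.94 and 0.57. The difference between the intestines was not tested. Other members of the same lists were called lower in the colon. Of 5 CD81+ FB markers 2 were called higher and 1 lower, and of 10 BMP antagonists 1 and 2. Of 8 WNT ligands 1 and 1 were called, and of 19 WNT modulators 1 and 0, beside 0.161% and 1.83% of all genes. *Pdgfra* fell by 1.98 ± 0.29, at 138 and 85.9 CPM against 434 and 297 (adjusted p = 1.3e-09), and had a log2 fold of -0.85 (adjusted p = 0.29) against cells within both exclusions. *Rspo3* missed the threshold without the second colonic library (log2 1.43, adjusted p = 0.47), and *Wnt2b* without the first (1.84, adjusted p = 0.50).

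The 10 genes lowest in the small intestinal cells were followed in this test. Of these, 5 were called lower in the colon, beside 1.83% of all genes. The colonic cells met both exclusions and their comparison cells need not, so what the exclusions themselves change was not taken out of these calls. *Procr* had 1 and 0 UMIs, or 12.5 and 0 CPM against 553 and 337, and fell by 6.26 ± 0.54 (adjusted p = 7.6e-28). With 1 UMI in the first library and 0 in the second, the size of this fold is poorly set. *Tmem158* stood at 62.7 and 51.5 CPM against 367 and 278 and fell by 2.79 ± 0.36 (adjusted p = 2.2e-12). *Ednrb*, *Ccl7* and *Tspan13* had no UMI in either library. Against a floor of 3 counts over both libraries they were at least 6.20-fold, 5.77-fold and 2.75-fold lower. *Mmp10* had no UMI either, but its floor of 21.7 CPM was above the 19.9 CPM of the other cells.

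The smooth muscle genes were not called in the colon. *Tagln* had 430 UMIs in the 8 cells of the first colonic library and 4 in the 14 cells of the second, or 5394 and 68.7 CPM against 2624 and 983, with a log2 fold of -0.23 ± 1.26 (adjusted p = 0.97). *Acta2* had 684 and 7 UMIs, or 8580 and 120 CPM against 3712 and 1290 (adjusted p = 0.98), and *Myh11* had 58 and 0 UMIs (adjusted p = 0.99). The 2 colonic libraries thus stood on opposite sides of the other cells for these genes, and *Kcnj8*, at 11 and 0 UMIs, did the same (adjusted p = 0.89). Of 6 smooth muscle markers 0 were called in either direction.

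Immediate early and inflammatory genes were lower in the colonic cells too, where the same exclusion was applied. Of 22 immediate early genes 9 were called lower in the colonic cells and 0 higher, and of 21 inflammatory genes 9 were called lower and 0 higher. Over all genes 1.83% were called lower and 0.161% higher, and genes outside the rule had a median log2 fold of -0.46. *Ptgs2* stood at 12.5 and 17.2 CPM against 283 and 317 (log2 -4.66 ± 0.50, adjusted p = 4.8e-17), and *Egr1*, an immediate early transcription factor, at 1881 and 2525 CPM against 3758 and 4473 (log2 -1.22 ± 0.12, adjusted p = 2.1e-19). Against colonic cells within both exclusions 11 of 10615 genes (0.104%) were higher and 58 (0.546%) lower, 1 of 22 immediate early and 3 of 20 inflammatory genes were called lower, and of the 10 lowest genes of that comparison only *Procr* was called.

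The last comparison set the small intestinal cells against the 22 colonic cells that passed the same rule, which no part of the rule used. The quasi-likelihood test of edgeR called 0 of 3754 genes (0%) at an adjusted p under 0.05 and a log2 fold beyond 1.5, and 247 had an unadjusted p under 0.05. DESeq2 called 25 genes. Among list genes, *Lrat*, lecithin retinol acyltransferase, which stores retinol as its ester, had 133 and 245 UMIs in the small intestinal cells and 0 and 0 in the colonic ones (adjusted p = 0.17). *Sfrp1* stood at 3193 and 3720 CPM against 828 and 567 (log2 2.38 ± 0.35, adjusted p = 0.17). *Postn*, the matrix protein periostin, stood at 95.5 and 329 CPM against 3550 and 1958 (log2 -3.60 ± 0.68, adjusted p = 0.24), and *Thy1*, the gene of CD90, had 1 and 1 UMIs against 19 and 4 (adjusted p = 0.17). *Grem1* was at 357 and 461 CPM against 1079 and 1220 (log2 -1.41 ± 0.34, adjusted p = 0.43). These 5 genes are named as list members with their values, and none of them was called. The colonic sums are small, and with the replicate number as a block 47 genes outside the rule were called, 27 higher and 20 lower.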

How the data were processed

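The authors sorted MSC, made 10x libraries and deposited filtered count matrices of UMIs per gene and cell (28692 genes, 34983 barcodes, 14341443 to 52269372 UMIs per library), with no normalization. Cell Ranger 3.0.2 and Seurat 3 are named in the submitters' processing notes with mm10, and the headers of the deposited files give 3.0.2 for the first and 3.1.0 for the second library of each intestine. No column of the files was left unused.

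Cells with at least 500 genes, 1000 UMIs and at most 10% mitochondrial UMIs were kept. The cells described, their comparison cells and the gene lists were chosen with earlier results of these data known. Each library was searched for doublets by scrublet (scanpy 1.11.5, rate 0.8% per 1000 cells, set after the default rate had marked almost none), and marked cells were kept. UMIs were summed per library and class. Small intestinal folds used CPM + 10, for genes with at least 10 UMIs per library. Genes were named as the 15 highest and 10 lowest mean folds among those past 2-fold in both libraries with at least 50 UMIs per library on the higher side, without rule, immunoglobulin, mitochondrial, ribosomal and *Xist* genes, besides members of the lists. Colonic contrasts used edgeR 4.0.16 (TMM, filterByExpr, robust glmQLFit, glmQLFTest) on the deposited counts with Benjamini-Hochberg adjustment over all genes, and DESeq2 1.42.0 in R 4.3.3 as an alternative. In the contrast within colon the small intestinal sums entered only to share the estimate of the spread. A further marker list of another cell type is not reported here. Scripts were tested on simulated data. Between the intestines the p-values measure the spread between 2 libraries per intestine, each of pooled mice. Within the colon, with library as block, they measure how the difference between the 2 cell classes varied between libraries. That spread was estimated over all 4 libraries. Alternatives were the gate, cell filter, doublets, thinning, comparison cells, normalization, low counts, pseudocount, blocks and left-out libraries.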

Additional observations from a re-analysis of the deposited data

How the results depend on the processing

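The share of Col1a2+ cells in the small intestine was 0.893% and 0.238% with at least 3 inclusion genes, 1.75% and 1.65% after thinning to 2000 UMIs, 11.7% and 6.69% of cells within both exclusions, and 2.67% of all filtered cells in the first library. Against other Col1a2+ cells, genes outside the rule past the fold (0 higher and 46 lower) became 14 and 178 with at least 3 inclusion genes, of which 32 of the lower genes were among the 46, 21 and 338 with a pseudocount of 1 CPM, and 7 and 169 at 1.5-fold. With 1 library left out the higher genes ranged from 4 to 26 and the lower ones from 55 to 234. In the colon, the 16 higher and 221 lower genes became 28 and 146 with DESeq2 size factors, 60 lower with the DESeq2 Wald test, 3 higher when cells were thinned, 7 and 58 against cells within both exclusions, and 0 and 0 without the library block (895 at an unadjusted p under 0.05). Left-out libraries gave 8 to 28 higher and 130 to 172 lower genes. Called genes were 8.10% higher in the main setting, 17.4% with DESeq2 size factors and 26.2% with the DESeq2 Wald test. The sign of *Tagln* turned without the second colonic library (0.81) and without the library block (0.37), of *Acta2* under the same settings (0.98 and 0.57), of *Myh11* with DESeq2 size factors (0.11) and without the second colonic library (0.54), and of *Kcnj8* with the DESeq2 Wald test (-0.60), after thinning (-2.33), within both exclusions (-0.16) and without the first colonic library (-11.85). Over the left-out libraries *Tagln* ranged from -4.27 to 0.81, *Acta2* from -3.85 to 0.98 and *Myh11* from -14.93 to 0.54. The cause was not tested. Between the intestines, 0 called genes became 13 higher and 12 lower with the DESeq2 Wald test and 51 and 41 with no filter on low counts. With the replicate block 27 were higher and 20 lower. Same-numbered libraries share a Cell Ranger version in the file headers and no other stated batch. Their deviations correlated at 0.48 over 3754 genes, with 2 pairs. Left-out libraries gave 0 to 15 higher and 0 to 22 lower genes. Neither colonic comparison could be run with at least 3 inclusion genes, since 0 colonic cells passed.

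Detection of 2 of 5 low genes depends on depth, so cells with 1 inclusion gene cannot be told apart from unsampled cells of the same kind. The 22 colonic cells limit what either colonic comparison can show, and genes at 0 UMIs there are bounded only by the floor of 3 counts.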

Other observations

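Several gene groups that the report does not describe were near the level of the other Col1a2+ cells. The 17 interferon response genes had a median log2 fold of -0.11, with 3 higher and 8 lower in both libraries, beside 27.7% and 29% of all genes, and the 7 genes of the hedgehog response had a median of 0.10, with 4 higher and 2 lower. The 8 IGF family genes had a median of 0.01 and the 12 retinoid genes of 0.05, and in none of these 4 groups was a gene 2-fold apart in both libraries. *Lrat*, of the retinoid group, stood at 334 and 264 CPM against 233 and 306, so that the libraries differed in direction.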
